A study of Mus musculus with 27 samples.

Results

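Naive macrophages were compared with macrophages that had received Poly(I:C) in 2 rounds. The comparison used 6 of the 27 arrays of the series, 3 naive and 3 Poly(I:C) re-stimulated, out of 9 groups. The cells were bone marrow derived macrophages (BMDM) from female C57BL/6 mice aged 6 to 8 weeks, grown for 7 days in medium conditioned by L929 fibroblasts, which supplies the macrophage growth factor CSF1. They were then moved to medium without the L929 supplement before any stimulation. Naive cells were untreated, and the labels do not say whether they were washed and given fresh medium alongside the treated cells. Re-stimulated cells were exposed to 10 µg/ml Poly(I:C) for 24 h, washed, rested briefly and exposed to 10 µg/ml Poly(I:C) again for 4 h. A further group, Poly(I:C) acute, received a single exposure of 4 h and its values are set beside the main comparison where the named genes are described. No group carried a genetic change. Of 55681 probes on the array with normalised values, 28411 were brighter than the local background by the scanner software's test on at least 2 arrays of either group, and these carry 20517 gene names.

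Poly(I:C) is a synthetic double-stranded RNA that stands in for the RNA of replicating viruses. It is sensed in endosomes by TLR3, which signals through the adapter TRIF (Ticam1), and in the cytosol by the helicases MDA5 (Ifih1) and RIG-I (Ddx58), which signal through Mavs. Both routes activate IRF3 and NF-κB, induce interferon beta, and lead through the type I interferon receptor, JAK kinases and STAT factors to a large set of antiviral genes. A macrophage that has already met a microbial ligand responds differently to the next exposure: genes whose induction is then reduced are called tolerised, and genes whose induction is kept or raised are called non-tolerised or trained. The comparison with naive cells gives the whole difference between untreated cells and cells taken after both exposures. It cannot by itself separate what the 24 h exposure left behind from what the last 4 h added. Re-stimulated cells also spent more than 24 h of exposure and rest in medium without the L929 supplement. The labels do not give the time naive cells spent in it. That time and the exposures therefore cannot be told apart for any gene below.

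The letters of binding motifs for the factors at the end of these routes were searched in RefSeq promoters of build GRCm38.p6, from 250 bases before to 50 bases after each start site, on both strands. The interferon-stimulated response element was searched as GAAANNGAA, a kappa-B element as GGGANTTTC and an E2F element as TTTCCCGC or TTTGGCGC. No searched spelling contains another. GAAANNGAA was found in 14.4% of 831 promoters of genes with higher signal after re-stimulation, in 5.3% of 944 promoters of genes with lower signal, in 7.42% of 14035 promoters of all genes tested and in 8.56% of all 32851 promoters in the table. Among genes of the antiviral lists described below that were higher, 27 of 54 promoters (50%) held it. The kappa-B letters were found in 2.77%, 0.424%, 1.11% and 1.11% of the same 4 sets of promoters. The E2F letters were found in 0.842%, 2.75%, 2.61% and 1.56%, and in 3 of 29 promoters (10.3%) of cell cycle genes that were lower. These are matches of letters in a fixed window, not sites shown to be used. Stretches around the match are printed for 4 genes whose signal was higher and 2 whose signal was lower, because they show how the response element letters lie in members of the induced set and the E2F letters in the replication helicase genes. The sequences run 5′ to 3′ on the gene's own strand, and capitals mark the motif letters or their reverse complement.
Saa3 promoter, chr7:46715748-46715846, minus strand: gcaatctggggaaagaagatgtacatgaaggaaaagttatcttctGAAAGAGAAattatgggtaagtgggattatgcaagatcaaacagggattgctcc
Gbp5 promoter, chr3:142496725-142496823, plus strand: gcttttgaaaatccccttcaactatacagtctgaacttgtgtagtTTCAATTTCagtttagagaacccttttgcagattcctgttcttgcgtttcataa
Gbp2 promoter, chr3:142620560-142620658, plus strand: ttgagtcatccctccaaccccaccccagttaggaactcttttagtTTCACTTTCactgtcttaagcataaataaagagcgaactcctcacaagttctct
Rsad2 promoter, chr12:26456518-26456616, minus strand: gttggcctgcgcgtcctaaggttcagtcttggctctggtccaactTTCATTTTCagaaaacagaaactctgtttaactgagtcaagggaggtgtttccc
Mcm7 promoter, chr5:138171996-138172093, minus strand: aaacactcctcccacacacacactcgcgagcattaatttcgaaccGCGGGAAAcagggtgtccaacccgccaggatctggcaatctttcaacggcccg
Mcm5 promoter, chr8:75109315-75109412, plus strand: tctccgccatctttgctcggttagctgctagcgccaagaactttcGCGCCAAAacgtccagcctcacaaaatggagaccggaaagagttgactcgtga
The capitals begin 125 bases before the start site in Saa3, 164 in Gbp5, 58 in Gbp2, 119 in Rsad2, 165 in Mcm7 and 149 in Mcm5.

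The 2 groups lay far apart. A probe is called here when limma's Benjamini-Hochberg adjusted p is under 0.05 and the change is at least 1.5-fold, and all values below are log2 normalised intensities or differences of them, so that a difference of 1 is a doubling. In all, 2565 probes were called, 1362 higher after re-stimulation (4.79% of those tested, 1135 gene names) and 1203 lower (4.23%, 1063 gene names). The rises were the larger: the median called rise was 2.12, and 233 higher probes changed over 16-fold, against a median of -1.53 and 28 probes for the falls. Over all probes tested the median difference was -0.04. With the replicate number as a block, 1701 probes were called, 1038 higher and 663 lower, 1311 of them also called without it. Scaling the arrays to a common median in place of quantile normalisation moved the median of all probes to 0.53 and the split to 2040 higher and 407 lower, so the number of falls depends on how the arrays are put on a common scale.

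**Figure D1:**
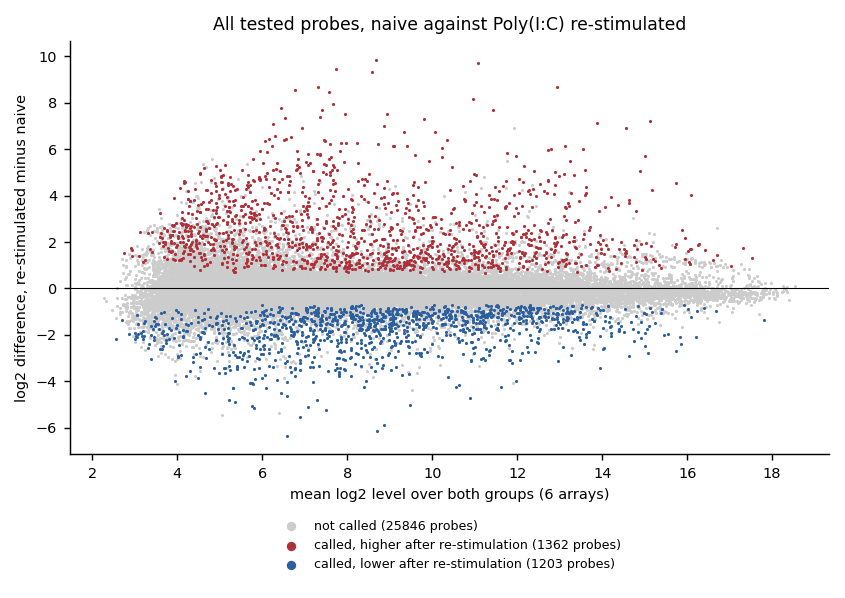
Each point is a probe, 28411 in all, with the mean log2 normalised intensity of the 6 arrays on the x axis and the re-stimulated minus naive log2 difference on the y axis. Coloured points are the 1362 probes called higher and the 1203 called lower. The rises reach further from 0 than the falls.

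The arrays of replicate 3 stood apart from the others. On naive replicate 3, 74.9% of probes were above background, against 46.3 to 50.2% on the other 5 arrays of the comparison and 43.1 to 55% on the other 24 arrays of the series with values. It also differed by over 2-fold from the mean of the other 2 naive arrays at 26.2% of tested probes, compared with 11.9% and 10.1% for naive replicates 1 and 2 and 7.62%, 8.41% and 13.2% for the re-stimulated arrays. Without naive replicate 3, 3969 probes were called, 1713 higher and 2256 lower, and without replicate 3 in both groups 6787, 2956 higher and 3831 lower, which included 2452 of the 2565. Leaving out other arrays mostly had the opposite effect: 485 probes were called without naive replicate 1, 458 without naive replicate 2, 309 without re-stimulated replicate 1, 420 without re-stimulated replicate 2 and 3020 without re-stimulated replicate 3. Of the 134 called genes named by the rule, 47 to 127 kept their call when a single array was left out, and 41 kept it whichever array was left out. None turned its direction, but none could, because the naive and re-stimulated values of these genes did not overlap. The study's methods describe a replicate in 2 ways, as cells of a different mouse and as a pool of 3 mice, so p-values measure the spread between these samples.

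Interferon beta, the ligand that starts the autocrine interferon loop, was among the largest rises. Ifnb1 (probe at mm9 chr4:88168023-88168082) read 3.13, 2.95 and 2.93 on naive replicates 1 to 3 and 13.41, 11.31 and 12.69 on re-stimulated replicates 1 to 3. Naive signals sat at the dim end of the scale, above background on 1 of 3 arrays, and the groups were far from overlapping. The rise was 9.47 ± 0.53 (SE, n = 3 per group, adjusted p = 0.00264). Of the 16 tested genes for type I interferons, their receptors and JAK kinases, 4 rose and 1 fell (median 0.49). The others that rose were Jak2, the kinase of several cytokine receptors, by 2.71, Ifna13 by 1.65 (adjusted p = 0.0541 with the replicate block) and Ifna1 by 0.87 (0.0627 with the block). The receptor chains Ifnar1 and Ifnar2 differed by -0.14 and 0.32 without passing the test, and Ifngr1, the ligand-binding chain of the interferon gamma receptor, fell by 1.05 (0.0622 with the block). With the block 2 genes of this list were called higher and 0 lower by limma, against 1 lower without it.

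Among transcription factors of the pathway the rises were few and large. Irf7, which amplifies interferon alpha production, read 11.74, 12.55 and 10.37 in naive cells and 16.08, 16.06 and 14.89 after re-stimulation. All re-stimulated arrays lay above all naive ones, with replicate 3 the lowest in both groups. Irf7 rose by 4.13 ± 0.63 (adjusted p = 0.0189, 0.0845 without re-stimulated replicate 1). Irf1 rose by 2.10 ± 0.18 (adjusted p = 0.00592), and Stat2 by 1.78 ± 0.26 (adjusted p = 0.0173). Irf9 had a difference of 0.63 and did not pass. In the whole list 3 of 16 factors rose and 0 fell by limma (median 0.20).

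Of 25 Toll-like receptors and adapters, 2 rose, against 4.79% of all probes: Tlr2, the receptor for bacterial lipopeptides, by 2.66 ± 0.44 (adjusted p = 0.0228, 0.0588 with the block) and its co-receptor Cd14 by 1.07. Tlr3 itself read 5.27, 5.56 and 2.81 in naive cells and 7.48, 6.97 and 6.97 after re-stimulation. The groups did not overlap, but the low naive replicate 3 widened the spread, and the difference of 2.59 ± 0.74 did not pass (adjusted p = 0.0858). Ticam1 differed by -0.10, Myd88 by 1.04 and Tlr4 by -0.59, none of them called, though Myd88 passed with the block (0.0493). Of the cytosolic sensors 10 of 15 rose (6 with the block) and 0 fell by limma, with a median of 1.26. They included Ifih1 (2.52), Ddx58 (2.15), Dhx58, the LGP2 co-sensor (1.98, adjusted p = 0.0521 with the block), Zbp1, a sensor of Z-form nucleic acid (3.78), and Mnda, listed as Ifi211 in RefSeq (3.96). Mavs, the adapter they share, had a difference of -0.66 that was not called.

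Most antiviral genes rose. Taking the sensors together with the oligoadenylate synthetases, the IFIT, Mx and ISG15 group, the interferon-inducible GTPases and the Schlafen genes, 64 of 91 tested genes rose (70.3%, 57 with the block, against 4.79% of all probes), 0 fell by limma, 2 had an unadjusted p under 0.05 with a negative difference, and the median was 1.94. Isg15, the ubiquitin-like modifier, read 14.04, 14.26 and 13.96 in naive cells and 18.20, 17.89 and 18.19 after re-stimulation, with groups far apart and little spread within them (4.01 ± 0.19, adjusted p = 0.00264). Usp18, which removes ISG15 and dampens receptor signalling, rose by 2.95 ± 0.16 (adjusted p = 0.00264). Rsad2 (viperin, probe at mm9 chr12:27127859-27127918) read 11.15, 11.50 and 10.47 against 15.99, 16.16 and 16.34, a rise of 5.12 ± 0.30, and Mx1, a GTPase that blocks viral ribonucleoproteins, rose by 4.85 ± 0.32. None of these genes had overlapping groups.

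Within the IFIT, Mx and ISG15 group 26 of 35 members rose (median 1.71), from Isg20, an RNA exonuclease (5.49), and Ifit1 (4.70), which binds RNA lacking a host cap, to Rtp4 (1.13, 0.0547 with the block). Ifitm1 and Ifitm2 had differences of -0.22 and -1.0 and were not called. Oasl1 rose by 5.72 ± 0.37, the largest of 6 rises among 12 genes of the oligoadenylate synthetase list (median 1.41). Oas1 and Ifit genes are close paralogues, and a probe may take signal from more than its own gene. Among 21 interferon-inducible GTPases 16 rose, with the highest median of these lists (3.48). Gbp5, which promotes inflammasome activation, read 6.61, 7.31 and 7.49 in naive cells and 13.25, 13.49 and 13.87 after re-stimulation, and Gbp2 read 9.11, 9.21 and 11.06 against 16.16, 16.09 and 15.17. Both sets of groups were well apart, with rises of 6.40 ± 0.30 and 6.01 ± 0.60 (adjusted p = 0.00264 and 0.00797). These are 2 of the genes whose response element letters are printed above.

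Of the Schlafen genes, regulators of lymphoid and myeloid growth and of translation, 6 of 8 rose. Slfn4 read 4.37, 4.95 and 3.22 in naive cells and 12.04, 12.20 and 10.89 after re-stimulation, a rise of 7.53 ± 0.55 (adjusted p = 0.00428) with groups far from overlapping. Slfn5 had a difference of -0.72 and was not called. Of 31 TRIM genes, ubiquitin ligases that restrict viruses, 9 rose and 1 fell (median 0.29), against 4.79% and 4.23% of all probes. The rises lay in the mouse Trim30 and Trim12 families and in Trim21, Trim34a and Trim56 (Trim56 0.066 with the block). Trim30c rose by 6.25 ± 0.59, and Trim30b, not above background on any naive array, was at least 13.7-fold higher. For such a gene the fold is a bound: the dim group's mean takes, on each array, the gene's own signal or that of the dimmest probe above background, whichever is higher. Trim47 fell by 2.88 (adjusted p = 0.0567 with the block). A member of the IFIT family with a gene model name, Gm14446 (Ifit1bl1 in RefSeq), lay outside the naming rule and was picked out after its values were seen. It read 2.84, 5.76 and 2.61 in naive cells and 14.65, 14.78 and 11.38 after re-stimulation, a rise of 9.87 ± 1.23 (adjusted p = 0.0130).

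**Figure D2:**
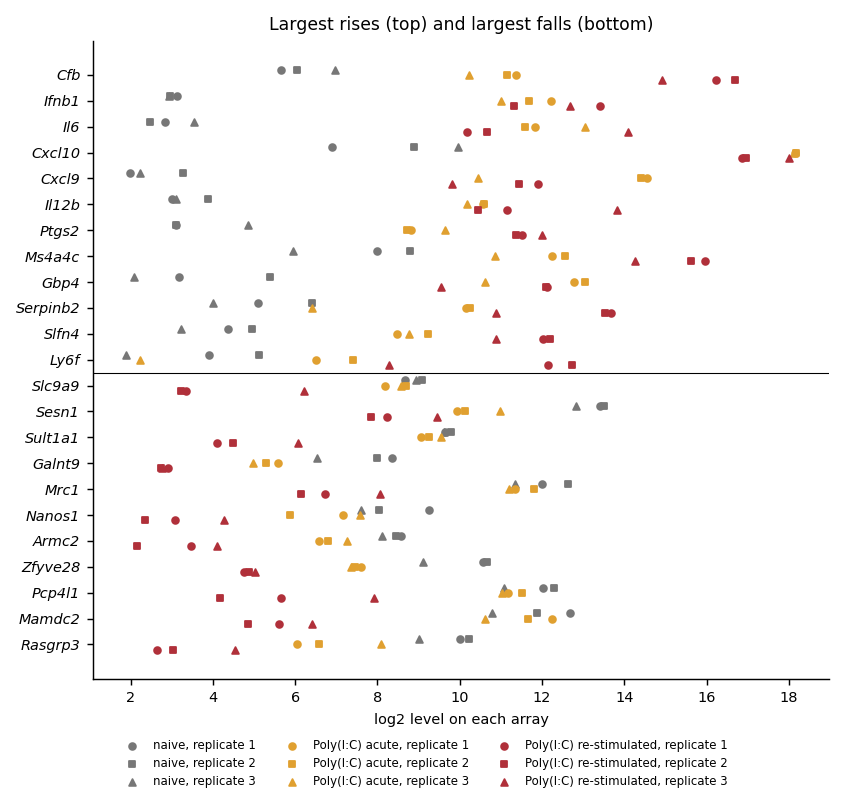
The 12 named genes with the largest rise and 11 of those with the largest fall, with the gene on the y axis and the log2 normalised intensity of each array on the x axis for naive, Poly(I:C) acute and Poly(I:C) re-stimulated cells, 1 point per array, the point's shape giving the replicate. For all 23 genes the naive and re-stimulated points do not overlap, which the naming rule required. Armc2 and Nanos1 reach 2.17 and 2.35 on re-stimulated replicate 2.

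Most genes of MHC class I presentation rose, from peptide cutting to loading. Of 25 genes, 16 rose (13 with the block) and 0 fell by limma, with a median of 1.52. H2-Q8, a non-classical class I molecule, rose most, from 10.18, 10.63 and 9.36 in naive cells to 16.72, 16.85 and 14.99 after re-stimulation (6.13 ± 0.59, adjusted p = 0.00782). The H2-Q and H2-T genes are near-identical paralogues, so signal may be shared between members. The peptide transporters Tap1 and Tap2 rose by 2.65 and 2.01 (Tap2 0.0523 with the block), the immunoproteasome subunits Psmb8, Psmb9 and Psmb10 by 1.97, 2.02 and 1.88, and the classical H2-K1 by 1.30. H2-D1 and B2m had differences of 0.52 and 0.33 and were not called. Nlrc5, the transactivator of class I genes, rose by 1.65. Of the MHC class II genes limma called 0 of 10, 2 had an unadjusted p under 0.05, both with positive differences, and the block gave 1 call, although the median was 0.96 and H2-Ab1 and Cd74 differed by 2.47 and 1.21.

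Among 20 costimulatory and checkpoint molecules 6 rose and 2 fell (median 2.17), against 4.79% and 4.23% of all probes. Cd40, the receptor for T cell help, read 6.10, 6.91 and 8.65 in naive cells and 13.75, 13.22 and 12.81 after re-stimulation, and rose by 6.04 ± 0.67 (adjusted p = 0.00938). Cd69, an early activation marker, rose by 5.41 ± 1.18 (adjusted p = 0.0446), the death ligand Tnfsf10 (TRAIL) by 4.98 ± 0.83 (adjusted p = 0.0234, 0.0757 with the block) and Cd274 (PD-L1) by 2.36. Cd86 had a difference of 2.90 that was called only with the block (0.0319), and Cd80, its partner ligand for CD28, fell by 1.21 (0.066 with the block). Cd200r1, an inhibitory receptor of myeloid cells, fell by 1.24 (0.0626 with the block), and with the block 0 of the 20 were lower by limma.

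Cxcl10 and Cxcl9, ligands of Cxcr3 on activated T and NK cells, had the largest rises of the chemokines tested. Cxcl10 read 6.89, 8.89 and 9.96 in naive cells and 16.86, 16.96 and 18 after re-stimulation, a rise of 8.69 ± 0.80 (adjusted p = 0.00701). Replicate 3 was the highest of both groups, and the groups were separated by more than the spread within them. Cxcl9 was not above background on any naive array and was at least 336-fold higher after re-stimulation, at 11.91, 11.43 and 9.80 (adjusted p = 0.00428). Of 11 CXC chemokines tested 4 rose (2 with the block): the others were Cxcl3, a neutrophil attractant above background on 1 of 3 naive arrays, by 6.40 (0.051 with the block) and Cxcl16 by 1.22 (0.0676 with the block). Cxcl1 and Cxcl2 had differences of 2.39 and 2.99 that did not pass. Cxcl11 differed by -0.40, also without passing.

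Ccl5 (RANTES) had the smallest adjusted p of the named genes. It read 11.33, 11.92 and 11.27 in naive cells and 18.82, 18.82 and 18.55 after re-stimulation, near the top of the scale of these arrays, where a rise can be compressed, although no array flagged its spot as saturated. The rise was 7.22 ± 0.24 (adjusted p = 0.00223). Of 13 CC chemokines 4 rose and 2 fell (median 1.75), with Ccl12, Ccl8 and Ccl2, ligands for monocytes, rising by 7.01, 3.86 and 3.69 (Ccl2 0.0627 with the block). Ccl24, an eosinophil attractant of alternatively activated macrophages, was at least 3.95-fold lower, being above background on all naive and no re-stimulated arrays, and Ccl6 fell by 1.76 (0.0723 with the block). Of the chemokine receptors only Ccrl2, a non-signalling chemerin receptor, rose (3.75 ± 0.25) and Cxcr3, the receptor for Cxcl9 and Cxcl10, fell by 3.42 ± 0.52 (adjusted p = 0.0191, 0.0661 with the block), among 15 tested. The shares over all probes were 4.79% and 4.23%.

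Inflammatory cytokines mostly lay higher, though many did not pass the test. Of 24 genes tested, 22 had a positive difference. By limma, 18 had an unadjusted p under 0.05 with a positive difference and 1 with a negative difference. Il6 read 2.84, 2.47 and 3.55 in naive cells, above background on 1 of 3 arrays, and 10.19, 10.66 and 14.09 after re-stimulation. Re-stimulated replicate 3 was well above its partners, and the groups were far from overlapping. Il6 rose by 8.69 ± 1.04 (adjusted p = 0.0115, 0.0526 without naive replicate 2). Il12b, the p40 chain shared by IL-12 and IL-23, read 3.02, 3.88 and 3.11 against 11.16, 10.45 and 13.81, was above background on 1 of 3 naive arrays, and rose by 8.47 ± 0.88 (adjusted p = 0.00871). Il12a and Il23a, the partners of p40, were not above background on 2 arrays of either group and were not tested. Il1b rose by 6.14 ± 0.81 (adjusted p = 0.0141), Inhba, a subunit of activin A, by 6.12 and Il1a, above background on 1 of 3 naive arrays, by 3.41.

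Their opponents rose too: Il1rn, the IL-1 receptor antagonist, by 2.84 and Il18bp, which binds IL-18, by 3.47. In all 9 of 24 tested cytokine genes rose and 0 fell by limma (median 2.65, 11 higher with the block). Tnf read 9.0, 9.53 and 13.44 in naive cells and 13.17, 12.63 and 15.56 after re-stimulation. Naive replicate 3 lay above 2 of the re-stimulated arrays, so the groups overlapped, although the re-stimulated array was higher on each of the 3 slides. The difference of 3.13 ± 1.36 did not pass (adjusted p = 0.201), and passed with the block (0.049) and without naive replicate 3 (4.52, adjusted p = 0.0334). Il10, the anti-inflammatory cytokine, read 4.73, 5.49 and 8.45 against 4.94, 5.36 and 9.79, with replicate 3 high in both groups. Its difference was 0.47 ± 1.57 (adjusted p = 0.876).

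Among 23 genes of the NF-κB pathway, 8 rose and 15 were not called. Traf1, an NF-κB target that modulates TNF receptor signalling, read 9.32, 10.18 and 10.07 in naive cells and 15.15, 15.47 and 14.16 after re-stimulation (5.07 ± 0.42, adjusted p = 0.00586). The inhibitor Nfkbie (IκBε) rose by 3.70 ± 0.37 and Tnfaip3 (A20), a deubiquitinating brake, by 2.38 ± 0.44. Among subunits Nfkb2 and Relb rose by 2.14 and 1.99 (Relb 0.0698 with the block), while Nfkb1, Rela and the IκB-like Bcl3 had differences of 0.75, 0.57 and 1.25 that were not called. With the block 4 of the 23 rose, 0 fell by limma in either fit, and the median was 1.12. Of 22 suppressors of cytokine signalling and MAP kinase phosphatases, 4 rose and 2 fell (median 0.74), against 4.79% and 4.23% of all probes. Socs1 read 8.10, 7.62 and 7.59 in naive cells and 10.34, 10.15 and 12.94 after re-stimulation, and rose by 3.38 ± 0.76 (adjusted p = 0.0489, 0.0817 with the block). Dusp1 rose by 1.87 ± 0.28, Dusp14 was at least 11.7-fold higher, and Dusp3 fell by 1.79 ± 0.28. Socs3 had a difference of 4.14 that passed only with the block (0.0292).

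Immediate early and AP-1 related factors went both ways, with 6 of 20 higher and 4 lower, against 4.79% and 4.23% of all probes. Maff, a small Maf protein, read 5.73, 5.73 and 5.72 in naive cells and 9.20, 8.83 and 9.80 after re-stimulation (3.55 ± 0.27, adjusted p = 0.00472), and Batf2, an interferon-induced AP-1 partner, rose by 3.52 ± 0.20 (adjusted p = 0.00264). Egr1 rose by 2.68 (0.0716 with the block) and Junb by 1.69. Maf, a large Maf factor of resident-type macrophages, fell by 1.72. Egr2 fell by 2.97 ± 0.42 (adjusted p = 0.0161) and Jun by 1.25. Fos differed by 0.02 and Atf3 by -0.52, and neither was called.

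Enzymes of arginine, nitric oxide and itaconate metabolism were higher at 9 of 12 genes (6 with the block), with 0 lower by limma and a median of 3.17. Nos2, the inducible nitric oxide synthase, read 7.05, 7.28 and 7.88 in naive cells and 13.58, 14.02 and 11.59 after re-stimulation (5.66 ± 0.66, adjusted p = 0.0104). The arginine transporter Slc7a2 rose by 5.33, Ass1, which remakes arginine from citrulline, by 4.13 (0.0511 with the block) and Gch1, which supplies the cofactor of Nos2, by 2.06. Irg1 (Acod1 in RefSeq), the enzyme that makes itaconate, read 8.09, 9.08 and 13.77 against 17.32, 17.56 and 17.40. Naive replicate 3 was far above the other naive arrays, and Irg1's rise of 7.12 ± 1.43 (adjusted p = 0.037, 0.0636 with the block) was 8.84 without it (adjusted p = 0.00267). Ch25h, which makes the antiviral 25-hydroxycholesterol, rose by 7.30 ± 0.84 (adjusted p = 0.0104).

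Ch25h was the single rise among 33 genes of cholesterol synthesis, oxidation and efflux, where 4 fell (2 with the block) and the median was -0.43. Over all probes 4.79% rose and 4.23% fell. The sterol synthesis genes Hmgcs1 and Dhcr7 fell by 1.08 and 1.40 (Hmgcs1 0.0624 and Dhcr7 0.0726 with the block), and the fatty acid binding protein Fabp4 by 2.22 ± 0.28. Of 28 glycolysis genes 2 rose and 2 fell, against 4.79% and 4.23% of all probes, with a median of 0.13. Hif1a and the glucose transporter Slc2a1 rose by 1.52 and 1.21 (Slc2a1 0.1 with the block), and the isoenzymes Aldoc and Eno2 fell by 1.79 and 1.32 (Eno2 0.0566 with the block). With the block 1 was higher and 1 lower. For the 54 respiratory chain genes limma called 0 (7 at an unadjusted p under 0.05, 0 with the block), and the median was -0.05. Of 18 NRF2 target genes 1 rose, the cystine transporter Slc7a11 (2.90, 0.059 with the block), against 4.79% of all probes.

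Among prostaglandin and leukotriene genes Ptgs2 had the largest rise. Ptgs2 (cyclooxygenase-2, probe at mm9 chr1:151954744-151954803) read 3.11, 3.1 and 4.86 in naive cells, above background on 1 of 3 arrays, and 11.52, 11.38 and 11.99 after re-stimulation. Its groups were far apart, with a rise of 7.94 ± 0.52 (adjusted p = 0.00309). Pla2g4a, the phospholipase that frees arachidonic acid, rose by 1.31 (0.0508 with the block). Thromboxane synthase Tbxas1 and the leukotriene cofactor Alox5ap fell by 2.15 and 1.45 (0.0701 and 0.0675 with the block). Ptgs1, Alox5 and the prostaglandin-degrading Hpgd had differences of -3.65, -2.92 and -5.36 and were not called, Ptgs1 and Alox5 passing only with the block (0.0267 and 0.0399). In all 2 of 17 genes rose and 2 fell (against 4.79% and 4.23% of all probes), with a median of -0.72, and with the block 1 rose and 3 fell.

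**Figure D3:**
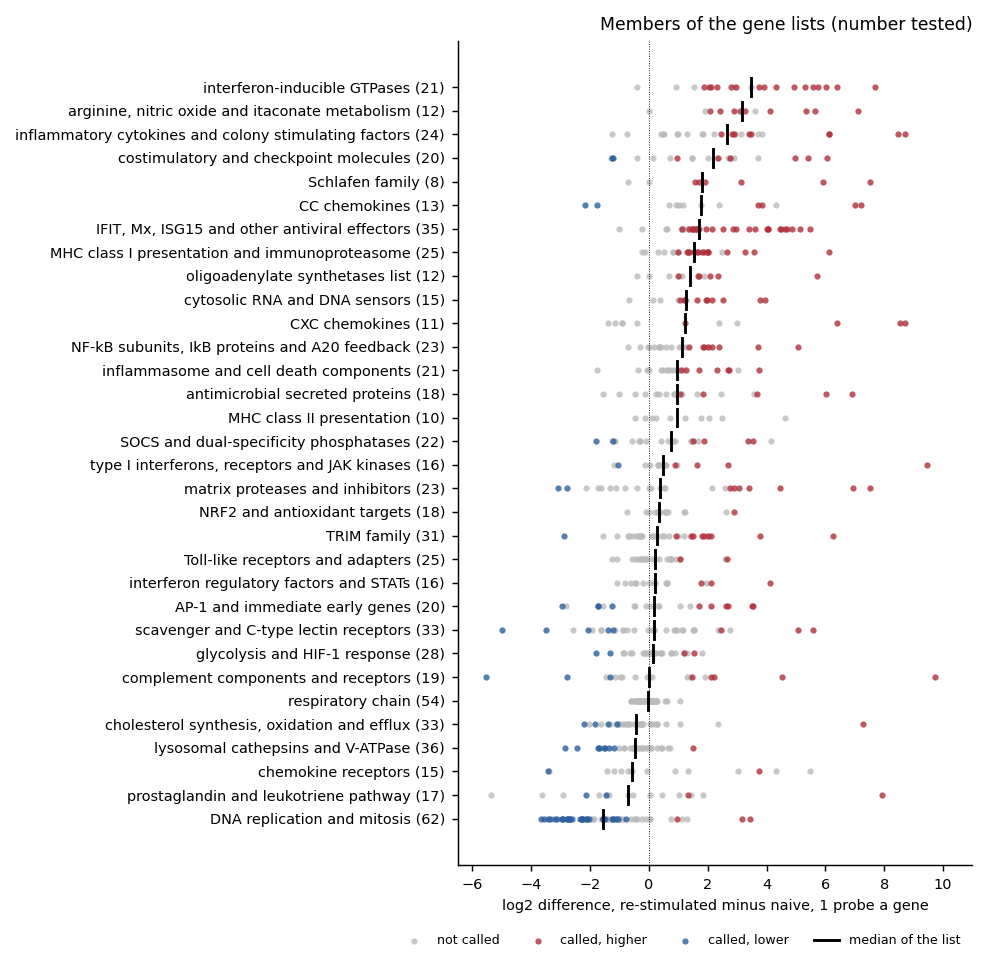
Each row is a gene list, each point is a tested member at its re-stimulated minus naive log2 difference on the x axis, coloured where called, and a black bar marks the list median. The antiviral lists lie to the right of 0 with medians between 1.26 and 3.48, and DNA replication and mitosis lies to the left with a median of -1.56.

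The complement gene Cfb held the largest rise of all genes taken by the naming rule. Cfb (factor B, the protease of the alternative pathway, probe at mm9 chr17:34993502-34993858) read 5.67, 6.04 and 6.98 in naive cells and 16.24, 16.68 and 14.91 after re-stimulation, a rise of 9.71 ± 0.56 (adjusted p = 0.00264). All re-stimulated arrays lay far above all naive ones. C3 rose by 4.54 (0.0704 with the block) and C2 by 2.22, whereas the integrin Itgax (CD11c, a chain of complement receptor 4) fell by 2.77 and the membrane inhibitor Cd59a by 1.34 (0.0816 with the block). Of 19 complement genes 5 rose and 3 fell (median 0.01), against 4.79% and 4.23% of all probes. The C1q chains C1qa, C1qb and C1qc had uncalled differences of -0.47, -0.91 and -0.98.

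Secreted acute phase and antimicrobial proteins rose at 5 of 18 genes (3 with the block) and 0 fell by limma. Saa3, the macrophage serum amyloid A, read 9.77, 10.07 and 13.51 in naive cells and 17.37, 17.86 and 18.82 after re-stimulation. Replicate 3 was highest in both groups and the groups did not overlap. The re-stimulated readings lay near the top of the scale, where a rise can be compressed. Saa3 rose by 6.90 ± 1.05 (adjusted p = 0.0189, 0.0791 without re-stimulated replicate 2), Saa1 by 6.01 ± 0.77 and the protease inhibitor Slpi by 3.66 ± 0.68. Lcn2 had a difference of 2.46 and S100a8 of 0.60, and neither passed. Inflammasome and cell death genes rose at 7 of 21 members (4 with the block), including the pyrin gene Mefv (3.73), the necroptosis executor Mlkl (2.74) and Nlrp3 (2.69). Among matrix proteases and serpins 7 of 23 rose and 2 fell, against 4.79% and 4.23% of all probes. Serpinb2 (PAI-2), an inhibitor of plasminogen activators, rose by 7.53, and Mmp12, the macrophage elastase, and Timp2 fell by 3.1 ± 0.31 and 2.79 ± 0.46 (Timp2 0.0547 with the block), of which Mmp12 alone was lower with the block.

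Of 33 scavenger and C-type lectin receptors, which take up ligands and debris, 5 fell and 3 rose, against 4.23% and 4.79% of all probes. Mrc1 (the mannose receptor CD206, probe at mm9 chr2:14253273-14253332) read 12, 12.62 and 11.35 in naive cells and 6.73, 6.14 and 8.07 after re-stimulation. The lowest naive array lay well above the highest re-stimulated one. Mrc1 fell by 5.01 ± 0.57 (adjusted p = 0.0102, 0.0591 without re-stimulated replicate 1). The lectin Clec10a (MGL1) fell by 3.48 ± 0.47 (adjusted p = 0.0153), Trem2, a lipid-sensing receptor, by 2.08 ± 0.31 (adjusted p = 0.0177) and Scarb1 and Stab1 by 1.21 and 1.40 (Scarb1 0.091 with the block). Rises in the same list were Olr1 (LOX-1, 5.59, above background on 1 of 3 naive arrays), Clec4e (Mincle, 5.06, 0.0689 with the block) and Clec5a (2.46, above background on 1 of 3 naive and 2 of 3 re-stimulated arrays), and the list median was 0.16. Marco and Msr1, other scavenger receptors, had uncalled differences of 1.13 and 0.60.

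Lysosomal genes fell at 8 of 36 members and rose at 1, against 4.23% and 4.79% of all probes, with a median of -0.46. The V-ATPase subunits Atp6v0a1 and Atp6v0d2, part of the proton pump that acidifies lysosomes, fell by 2.87 ± 0.38 and 2.44 ± 0.42 (adjusted p = 0.0141 and 0.0254). The acid lipase Lipa read 15.13, 15.47 and 15.21 in naive cells and 13.73, 13.55 and 13.32 after re-stimulation, a fall of 1.74 ± 0.20 (adjusted p = 0.00991), and Hexa, a hexosaminidase chain, fell by 1.48. Ctsc, which activates granule proteases, was the rise (1.51). Ctsb, Ctsd and Ctsl, abundant cathepsins, had uncalled differences of -0.22, -0.50 and -0.85.

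Cell cycle genes formed the largest group of falls among the lists. Of 62 genes of DNA replication and mitosis 31 fell (50%, 21 with the block, against 4.23% of all probes) and 3 rose (1 with the block), with a median of -1.56. Ccnb2, a cyclin that drives entry into mitosis, read 11.68, 11.91 and 10.31 in naive cells and 8.22, 7.30 and 7.34 after re-stimulation, and Plk1, the mitotic kinase, read 10.88, 11.20 and 9.23 against 7.16, 7.06 and 6.44. Neither gene's groups overlapped, and naive replicate 3 was the lowest naive array for both. Ccnb2 fell by 3.68 ± 0.50 (adjusted p = 0.015, 0.0703 without re-stimulated replicate 2) and Plk1 by 3.55 ± 0.55 (adjusted p = 0.0197, 0.0794 without re-stimulated replicate 2). Kif23, a kinesin of cell division, was at least 10.8-fold lower (adjusted p = 0.0598 with the block).

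Among mitotic genes Ccna2, Birc5, Top2a and Cdc20 fell by 3.35, 3.11, 2.72 and 2.78, and among replication genes Rrm2, a subunit of the enzyme that makes deoxyribonucleotides, fell by 2.93 and the helicase subunits Mcm2, Mcm7 and Mcm5 by 1.57, 1.5 and 1.10 (Mcm2 0.0532 and Mcm5 0.0846 with the block). Mki67, Pcna and Cdk1 had differences of -1.02, -1.02 and -1.63 and were not called. The members that rose were Ccnd2 (3.44) and Ccne1 (3.16, 0.0562 with the block), cyclins of the G1 phase, and Cdkn1a, the p21 inhibitor of cyclin-dependent kinases (0.97, 0.0694 with the block). By slide, the median over the list was -1.71, -1.91 and -1.07 for replicates 1, 2 and 3. In bulk RNA, fewer cycling cells and less of these RNAs in each cell cannot be told apart. The part of time in medium without the L929 supplement was not tested.

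**Figure D4:**
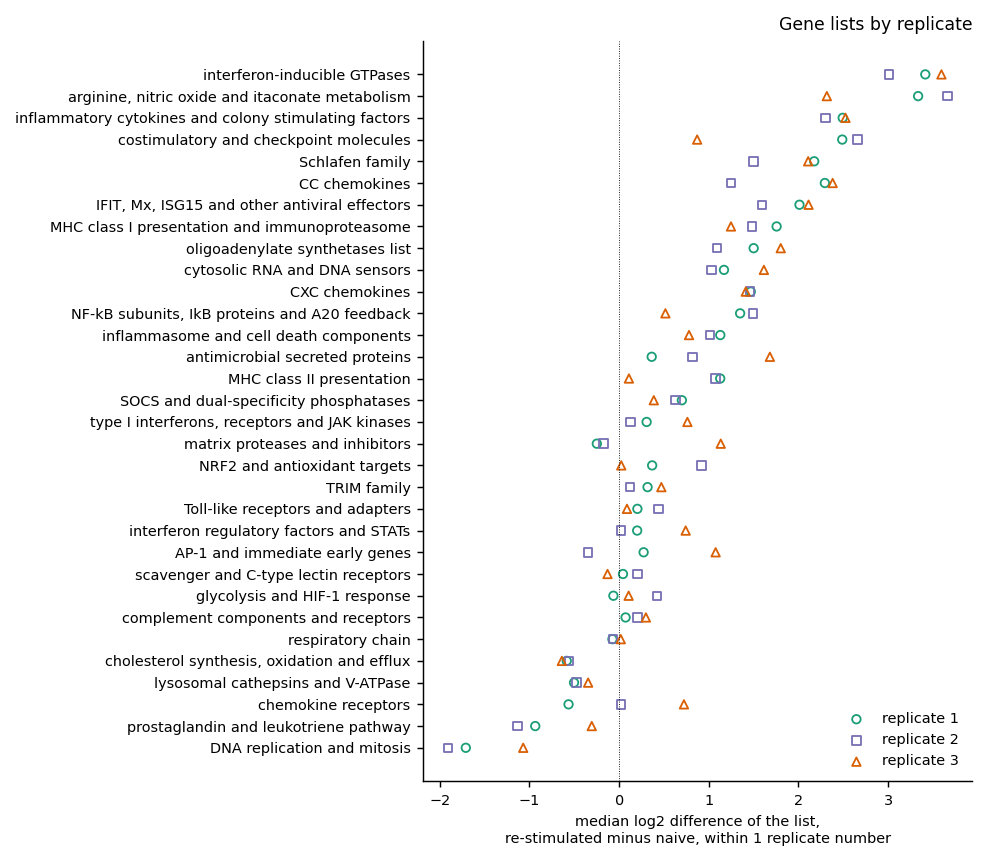
Median re-stimulated minus naive log2 difference of each gene list on the x axis, with the lists on the y axis, computed within each replicate number, which is 1 slide holding 1 array of each group. For DNA replication and mitosis all 3 medians lie below 0, between -1.07 and -1.91.

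The genes with the largest falls included several with no place in the lists. Rasgrp3, an activator of Ras and Rap GTPases that also tempers TLR signalling, read 10.01, 10.23 and 9.01 in naive cells and 2.64, 3.04 and 4.54 after re-stimulation, above background on 1 of 3 re-stimulated arrays. It fell by 6.35 ± 0.58 (adjusted p = 0.00676). Mamdc2 read 12.67, 11.87 and 10.79 against 5.60, 4.85 and 6.40 and fell by 6.16 ± 0.59 (adjusted p = 0.00767). Neither gene's groups overlapped, as the rule for the largest falls required. Sesn1, a p53 target that restrains mTORC1, fell by 4.74 ± 0.45 and Zfyve28, an endosomal protein, by 5.23 ± 0.44, and Sult1a1, a phenol sulfotransferase above background on 1 of 3 re-stimulated arrays, by 4.80 ± 0.52. Armc2, Nanos1 and Galnt9 were above background on no re-stimulated array and were at least 35.1-fold, 33.6-fold and 28.4-fold lower. Pcp4l1 and Slc9a9 fell by 5.89 and 4.63 (adjusted p = 0.0639 and 0.0532 with the block).

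The values of acute cells, exposed for 4 h without a prior exposure, show where the re-stimulated level lay relative to a single response. That comparison had 27139 tested probes, of which 627 were higher after re-stimulation (2.31%) and 711 lower (2.62%), and it shares the re-stimulated arrays with the one above. It rests on few arrays: without acute replicate 1, acute replicate 2, re-stimulated replicate 1 or re-stimulated replicate 2 limma called 0 probes, with 4925, 5097, 5260 and 4713 at an unadjusted p under 0.05, and without acute replicate 3 or re-stimulated replicate 3 it called 2324 and 3129. Each called difference to acute in the following paragraphs therefore loses its call in at least 4 of the 6 fits with an array left out. A further fit ends the call of Irf7 and Slpi (adjusted p = 0.0609 and 0.0539 without acute replicate 3) and of Egr1 and C2 (0.0503 and 0.0646 without re-stimulated replicate 3).

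Several of the strongest rises against naive cells came with levels near those of acute cells. Ifnb1 averaged 3.00 ± 0.11 (SD, n = 3) in naive, 11.63 ± 0.61 in acute and 12.47 ± 1.07 in re-stimulated cells, and the last 2 groups differed by 0.84 ± 0.58 (SE, adjusted p = 0.406). Il12b averaged 10.44 ± 0.24 in acute and 11.81 ± 1.77 in re-stimulated cells (difference 1.37 ± 0.83, adjusted p = 0.346), and Il6 12.16 ± 0.78 and 11.65 ± 2.13 (-0.51 ± 1.05, adjusted p = 0.787). Isg15 differed by 0.41 ± 0.20 (adjusted p = 0.243) and Cxcl10 by -0.88 ± 0.32 (adjusted p = 0.155). Both of these genes lay near the top of the scale in acute and re-stimulated cells, where a difference can be compressed. None of these 5 passed, which does not show that the levels were the same.

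Of the named genes 14 were higher after re-stimulation than after a single exposure. Cfb, the complement protease described above, averaged 6.23 ± 0.68 in naive, 10.91 ± 0.61 in acute and 15.94 ± 0.92 in re-stimulated cells, and exceeded the acute level by 5.03 ± 0.53 (adjusted p = 0.0194). Saa3 and Saa1 exceeded it by 4.87 ± 0.58 and 4.76 (adjusted p = 0.0209 and 0.0201), Il1b by 3.68 ± 0.66 (adjusted p = 0.0392), Slfn4 by 2.89, Ptgs2 by 2.57 ± 0.31 (adjusted p = 0.0219) and Irf7 by 2.05 ± 0.39 (adjusted p = 0.0424). Dusp1, the phosphatase that switches off MAP kinases, averaged 9.60 in acute cells, below its naive readings of 10.66, 10.40 and 9.72, and was 2.53 higher after re-stimulation. The remaining genes were Ms4a4c, Slpi, Egr1, Ifna13, C2 and Pla2g4a, with differences from 1.05 to 3.39 (Pla2g4a 0.0547 with the block). Ms4a4c had 3 tested probes, of which 2 were called higher than naive (7.70 and 8.18) and 1 was not (1.21).

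Another 29 named genes were lower than in acute cells. For some the acute mean lay far above the naive one, for some near it, and for others well below it. Among those with an acute mean far above naive, Rsad2 averaged 17.83 ± 0.28 in acute and 16.16 ± 0.17 in re-stimulated cells (-1.67 ± 0.21, adjusted p = 0.0226), Mx1 16.64 ± 0.08 and 15.40 ± 0.18 (-1.24 ± 0.17, adjusted p = 0.0256) and Irf1 16.85 ± 0.60 and 15.06 ± 0.04 (-1.79 ± 0.31, adjusted p = 0.0371). Cd69 averaged 5.56 ± 2.08 in naive, 15.02 ± 0.23 in acute and 10.96 ± 1.36 in re-stimulated cells, the widest such gap among these 4 (-4.06 ± 0.65, adjusted p = 0.0317). All 4 remained above the naive level. Socs1, the JAK inhibitor, averaged 14.46 ± 0.38 in acute and 11.15 ± 1.56 in re-stimulated cells, a difference of -3.32 ± 0.75 that did not pass (adjusted p = 0.0582).

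Where the acute mean lay close to the naive one, the re-stimulated mean lay below both. Mrc1 averaged 11.99 ± 0.64 in naive, 11.45 ± 0.31 in acute and 6.98 ± 0.99 in re-stimulated cells (-4.47 ± 0.50 against acute, adjusted p = 0.0201), and Mamdc2 11.78 ± 0.94, 11.50 ± 0.83 and 5.62 ± 0.78 (-5.88 ± 0.54, adjusted p = 0.0171). The mitotic genes had the same order: Ccnb2 averaged 11.30 ± 0.86, 11.07 ± 0.53 and 7.62 ± 0.52 (-3.45 ± 0.37, adjusted p = 0.0199), and Plk1 10.44 ± 1.06, 10.25 ± 0.44 and 6.88 ± 0.39 (-3.36 ± 0.31, adjusted p = 0.0171). Other genes were already well below naive in acute cells. Zfyve28 averaged 10.11 ± 0.88 in naive, 7.47 ± 0.12 in acute and 4.88 ± 0.13 in re-stimulated cells (-2.59 ± 0.17 against acute, adjusted p = 0.0117). Galnt9 averaged 7.62 in naive and 5.28 in acute cells, and was at least 5.62-fold lower than acute after re-stimulation. The acute cells were taken 4 h after their only exposure and the re-stimulated cells more than 24 h after their initial one, so time in culture since exposure and re-exposure cannot be told apart. That time was also spent in medium without the L929 supplement.

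By list, the acute comparison gave calls mainly in a few places. Over all probes of that comparison 2.31% were higher and 2.62% lower. Of the 62 DNA replication and mitosis genes 26 were lower than in acute cells and 1 higher, with a median of -1.11. Of the 21 interferon-inducible GTPases 7 were lower and 0 higher by limma (median -1.10), and of the 35 IFIT, Mx and ISG15 genes 6 were lower and 1 higher (median -0.20). MHC class I genes had a median of 0.76 without a call in either direction. Of the 20 immediate early and AP-1 genes 5 were higher and 0 lower, and of the 24 cytokine genes 2 were higher and 0 lower by limma.

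**Figure D5:**
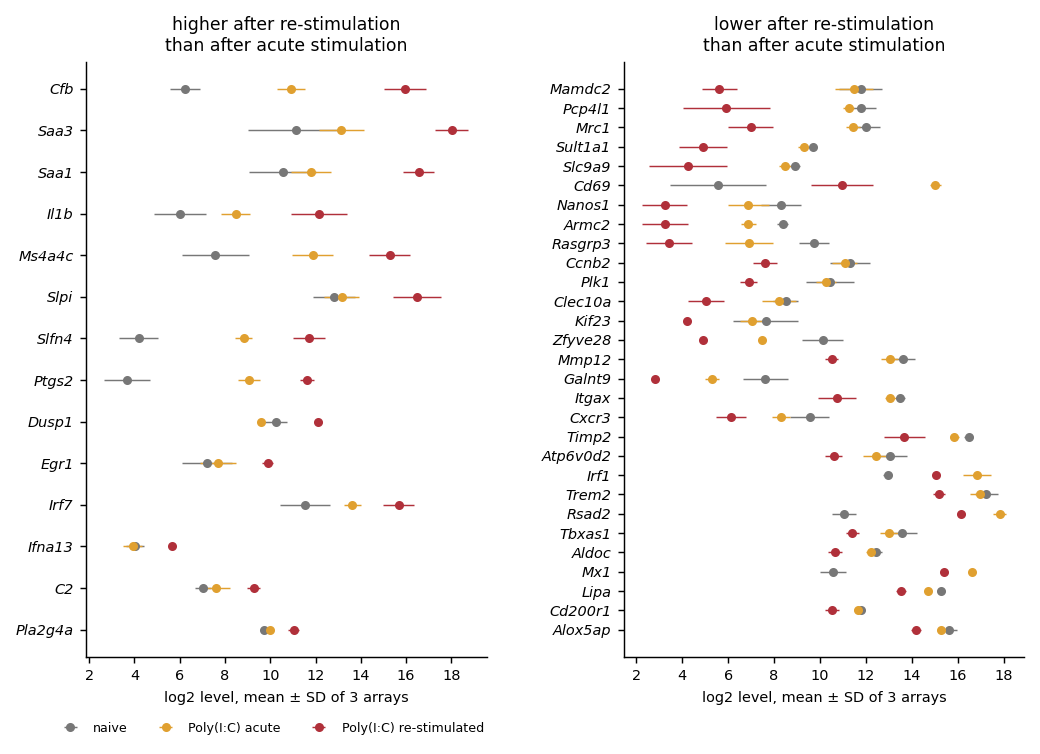
Mean ± SD of log2 normalised intensity (n = 3 arrays per group) on the x axis in naive, Poly(I:C) acute and Poly(I:C) re-stimulated cells for the named genes called between acute and re-stimulated cells, 14 higher after re-stimulation and 29 lower. Cfb has well separated means in all 3 groups, Rsad2 and Mx1 peak in acute cells, and Mrc1 and Ccnb2 drop in re-stimulated cells alone.

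Markers of macrophages matched the label. All 9 macrophage markers were above background in each group, and their summed log2 signal ranged from 19.57 to 19.61 in naive, 19.09 to 19.47 in re-stimulated and 19.48 to 19.55 in acute cells. Of these 9 genes 1 rose, Cd14 as given above, and 1 fell, with 4 lower at an unadjusted p under 0.05 and a median of -1.0. Neutrophil markers were above background at 10 of 10 genes in naive and 8 of 10 in re-stimulated cells, with summed signals of 11.94 to 13.99 and 11.6 to 14.81, and none was called, although Ly6g read 8.91, 9.60 and 2.54 against 12.29, 12.78 and 6.42 (adjusted p = 0.411, 0.0224 with the block). Of 7 dendritic cell markers, 2 were above background on at least 2 naive arrays and 3 on at least 2 re-stimulated arrays. Flt3, Xcr1, Clec9a and Cd209a were above background on no re-stimulated array. The dendritic cell markers summed to 16.21 to 16.31 and 15.33 to 16.02, with Zbtb46, the 1 called of 4 tested, higher by 2.81 (0.0672 with the block). Of 8 fibroblast markers, 2 were above background on at least 2 naive arrays and 3 on at least 2 re-stimulated arrays. Col3a1, Pdgfra, Lum and Postn were above background on no re-stimulated array. The fibroblast markers summed to 7.06 to 8.29 and 8.71 to 8.98, with Dcn, the 1 called of 3 tested, higher by 3.02. T and NK cell markers summed to 12.73 to 13.09 and 12.2 to 12.23, with Nkg7 called at -1.06 (0.0699 with the block), B cell markers to 8.38 to 9.35 and 8.22 to 8.29 with Ms4a1 at background on all arrays, and erythroid and mast cell markers to 6.55 to 7.04 and 6.07 to 7.55. The part of these cell types in the results above was not tested.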

How the data were processed

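Total RNA of the macrophages was hybridised in 1 colour to Agilent 8x60K mouse arrays. The authors deposited the scanner's spot and background intensities for each array, and log2 values for 25 of the 27 arrays in a single table, made by RMA background correction and quantile normalisation. Background flags came from the intensity files and the log2 values were used as deposited. RMA and limma are named in the submitters' processing notes without versions. Rebuilding these values from the intensities gave a median absolute difference of 0.0354 (largest 0.113).

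Probes above background on at least 2 of 3 arrays in either group were fitted with limma 3.58.1 in R 4.3.3 (lmFit and eBayes), and p-values were adjusted by the Benjamini-Hochberg method over all probes tested. A call needed an adjusted p under 0.05 and a 1.5-fold change. The number of arrays limits the precision. Replicate numbers pair the samples by slide: each number is 1 slide holding both groups, and the residuals of arrays with the same number (value minus group mean) correlated at 0.1758, 0.2579 and 0.254 over 28411 probes. Arrays with different numbers correlated between -0.2182 and 0.1004, and every such pair with a replicate 3 array was negative. The residuals of a group cancel out at each probe, so positive same-number values require negative values elsewhere. The negative signs are therefore no separate support for the pairing. The main calls come from the fit without the block. The fit with the number as a block is given where it changes a call. Gene lists are described by counts and medians, 1 probe a gene (the highest mean).

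Named genes are the 12 largest rises and 12 largest falls among called probes with non-overlapping groups and all 3 arrays of the higher group above background, up to 3 called members of each list in each direction, a fixed set of genes of the Poly(I:C) response, and list members named in the account of a list. Clone, transcript and region names were left out, and some genes that the rule takes, 1 of the 12 largest falls among them, are counted in the lists but not reported here. The members, lists and rule were chosen with earlier results of these data known. Il12a, Il23a, Csf3 and Cxcl5 were too dim to be tested. The alternatives were the replicate block, a fit of all 9 groups, array weights, no detection filter or a stricter one, no fold limit, other background corrections and scalings, and each array left out. Gene names are those of the array, of which 14099 of 20517 matched a RefSeq symbol or a single synonym. Probe positions are the array's, in mm9, and promoter positions RefSeq's, in GRCm38.p6.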

Additional observations from a re-analysis of the deposited data

How the results depend on the processing

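Counts of calls for naive against re-stimulated cells depended on the fit, and 2565 probes (1362 higher, 1203 lower) is one point in a wide range. With the replicate block 1701 were called, 663 of them lower. One fit of all 9 groups gave 5744 (2868 higher, 2876 lower), array weights 7880 (3445 and 4435), no detection filter 1241 (774 and 467), and without replicate 3 in both groups, chosen after seeing the data, 6787 (2956 and 3831). Median scaling gave 407 lower and the processed signal at its 75th percentile 2001 lower. With an array left out, called probes ranged from 309 to 3969, higher from 226 to 1713 and lower from 83 to 2256, the lowest without re-stimulated replicate 1 and the highest without naive replicate 3. The re-stimulated against acute count of 1338 became 3735 with all 9 groups, 6622 with array weights, 228 without a filter and 5739 without replicate 3, and ranged from 0 to 3129 with an array left out. The cause was not tested.

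Of 139 named genes tested, 134 were called, and none of these turned direction in any setting. In the fits with an array left out, their non-overlapping groups fixed this in advance. With the replicate block 100 stayed called, with array weights 134, with median scaling 111, and 77 in every setting that kept all 6 arrays. Beyond the genes with a block value above, the replicate block ended the calls of Dusp7 (0.0778) and Tbx21 (0.0507) and, against acute cells, of Cd200r1 (0.0621), Cxcr3 (0.0562), Tbxas1 (0.0512) and Alox5ap (0.0533), and changed no other call of a gene named in the text. Il10 reversed, at -0.28 without naive replicate 1 and -1.07 without re-stimulated replicate 3, and passed in neither, against 1.59 without naive replicate 3. With 3 arrays a group, and replicate 3 apart from the others, differences of genes near background, such as Ifnb1 and Cxcl9 in naive cells, are limited by signal over background.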
